A study of Mus musculus with 7 samples.

Results

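The 37 genes of the mouse mitochondrial genome are described here in P15 cerebellum, in wild-type mice and in mice with a knockout allele of L3mbtl3. They were chosen by name, as all genes whose symbol starts with mt-, and make up 37 of the 55450 genes in the per-library tables. They comprise 13 genes for proteins, 2 for ribosomal RNAs (rRNAs) and 22 for transfer RNAs (tRNAs). The samples are whole cerebella of C57BL/6 pups at postnatal day 15, from which poly(A) RNA was made into directional libraries, 3 of genotype WT and 4 of genotype L3mbtl3 KO/+, which carries a knockout beside a wild-type allele. Which part of L3mbtl3 was deleted, the litter of the pups and any sequencing batch are not in the labels, so p-values measure only the spread between these samples.

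The mitochondrial genome is a small circular DNA that is transcribed from both strands as long precursor RNAs, which are cut mainly at the tRNAs into single rRNAs, mRNAs and tRNAs. Its 13 proteins are core subunits of respiratory chain complexes I, III and IV and of ATP synthase (complex V), and all other subunits are encoded in the nucleus. Neurons of the cerebellum depend on this chain for ATP, and fragments of mitochondrial DNA are also found inserted in nuclear chromosomes, where they are annotated as pseudogenes.

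Total expected counts, the sum over genes of the read numbers that RSEM estimated, ran from 29248360 to 43761792 per library. L3mbtl3 was at 22.7 to 27.2 CPM (counts per 1000000 counts of the library) in WT and 17.04 to 23.2 CPM in KO/+, which overlapped, so its level does not check the genotype labels. Summed Purkinje cell markers were at 4999 to 7796 CPM and summed markers of cerebral cortex and hippocampus at 13.7 to 25.5 CPM. Replicate libraries differed by more than sampling noise, so each was counted as its own sample. In whole tissue, fewer cells of a type and less RNA per cell cannot be told apart.

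The sequences below show the features on which the measurements turned: transcripts that overlap, transcripts with a near-identical nuclear copy, and a transcript from the other strand. They are GENCODE M21 transcripts (GRCm38), written 5′ to 3′. The genes mt-Atp8 and mt-Atp6, which encode subunits of ATP synthase and are carried on a shared mRNA, overlap by 43 bases, in capitals here at the end of mt-Atp8 (chrM:7890-7969, plus strand) and the start of mt-Atp6 (chrM:7927-8006, plus strand).
mt-Atp8 end: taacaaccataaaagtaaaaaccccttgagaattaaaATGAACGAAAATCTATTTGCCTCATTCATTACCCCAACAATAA
mt-Atp6 start: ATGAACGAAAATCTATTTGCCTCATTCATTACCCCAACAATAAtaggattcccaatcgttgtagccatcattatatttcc

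A block of chromosome 1 on the minus strand, chr1:24611535-24616197, holds 7 annotated pseudogenes that copy members. Over the whole annotated length of the copy, 5 of the 7 were identical to the member, and what these 5 annotated copies lacked was the member's end. Only annotated transcripts were compared, so whether the lacking bases follow the copy on chromosome 1 was not examined. The end of mt-Co2, a subunit of complex IV (chrM:7647-7696, plus strand), is shown with the end of its copy Gm28661 (chr1:24614885-24614931, minus strand). The 3 bases that are not in the annotated copy are in capitals.
mt-Co2 end: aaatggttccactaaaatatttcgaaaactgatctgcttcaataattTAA
Gm28661 end: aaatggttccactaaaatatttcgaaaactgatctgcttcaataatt

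The copy of mt-Nd3, a subunit of complex I, differed from it at 1 base, T3C, counted from 1 at the first base of the member. The start of mt-Nd3 (chrM:9459-9498, plus strand) and of its copy Gm28438 (chr1:24613080-24613119, minus strand) are shown with that base in capitals.
mt-Nd3 start: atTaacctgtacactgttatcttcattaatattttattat
Gm28438 start: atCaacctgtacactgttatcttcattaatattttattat

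The copy of mt-Co1, the catalytic subunit of complex IV, covers bases 1054 to 1545 of the member and differed from it at 6 bases near the start of the copy, T1056A, C1057T, A1059G, A1060G, C1062A and A1066T, counted from 1 at the first base of mt-Co1. The stretch of mt-Co1 (chrM:6381-6420, plus strand) and the start of Gm29216 (chr1:24616158-24616197, minus strand) are shown with those bases in capitals.
mt-Co1 inner stretch: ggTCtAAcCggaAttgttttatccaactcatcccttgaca
Gm29216 start: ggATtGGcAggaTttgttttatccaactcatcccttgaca

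The gene mt-Nd6, a subunit of complex I, is the only member for a protein on the minus strand. Its first 60 bases (chrM:14011-14070, minus strand) are shown with those of mt-Nd5 (chrM:11742-11801, plus strand), another subunit of complex I whose end overlaps the end of mt-Nd6 by 14 bases, with G in capitals.
mt-Nd6 first 60 bases: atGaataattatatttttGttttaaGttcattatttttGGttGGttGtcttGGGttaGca
mt-Nd5 first 60 bases: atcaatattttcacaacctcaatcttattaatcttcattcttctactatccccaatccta

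Over its whole length, mt-Nd6 was 28.1% G and 5.97% C, whereas the 12 protein-coding members on the plus strand were 5.88% to 16.1% G. The tRNAs were the shortest members, at 59 to 75 bases, with 14 on the plus strand and 8 on the minus strand. The shortest, mt-Ts2, a serine tRNA (chrM:11613-11671, plus strand), is shown whole to set its length beside that of a sequenced fragment.
mt-Ts2: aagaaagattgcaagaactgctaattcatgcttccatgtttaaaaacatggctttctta

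The 22 tRNAs were in effect not measured. RSEM's effective length, the number of positions at which a fragment of the library could start in a transcript, was 0 for all 22 in all 7 libraries. The mean fragment, taken as length minus effective length over genes of at least 3000 bases, was 346 to 365 bases, and every library had effective length 0 for genes as long as 158 to 166 bases. Of the 22 tRNAs only mt-Tm, the methionine tRNA, had any count, 1 count in 1 library. Their levels are therefore not known from these tables, and the other 15 members, each with at least 4074 counts over the 7 libraries, are described from here on.

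The nuclear copies held a large share of the counts of several members. The copies took 0.703% to 0.995% of all counts, or 16.2% to 18.6% of the counts of members and copies together. Since RSEM divides reads that fit more than 1 gene, the division between a member and an identical copy is an estimate, and which of them a read came from cannot be told apart where the letters are the same. For mt-Atp6, 69.9% to 75.5% of the counts of the pair were given to Gm10925. The share was 64.6% to 71.5% for mt-Nd3 and Gm28438, 54.0% to 65.1% for mt-Co3 (complex IV) and Gm28437, and 51.6% to 63.4% for mt-Nd4l (complex I) and Gm10222. It varied most for mt-Co2, from 19.9% in KO/+ replicate 2 to 38.7% in WT replicate 2.

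The copies that cover only part of the member, those of mt-Co1 and mt-Nd4, took less. Gm29216 took 1.37% to 2.54% of its pair with mt-Co1. Gm28439, which copies the first 876 bases of mt-Nd4 (complex I) and lacks its last 502, took 0.200% to 0.351%. Of the 50-base stretches of each member, 100% were also found in other genes for mt-Co2, 99.9% for mt-Co3, 99.5% for mt-Atp6, 98.8% for mt-Nd4l and 98.0% for mt-Nd3. The share was 62.2% for mt-Nd4, 51.1% for mt-Co1, 8.19% for mt-Nd2, 7.61% for mt-Nd5 and 1.04% for mt-Rnr2. It was 0 for mt-Rnr1, mt-Nd1, mt-Atp8, mt-Nd6 and mt-Cytb, so that no 50-base stretch of these is found in another gene of the annotation.

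**Figure D1:**
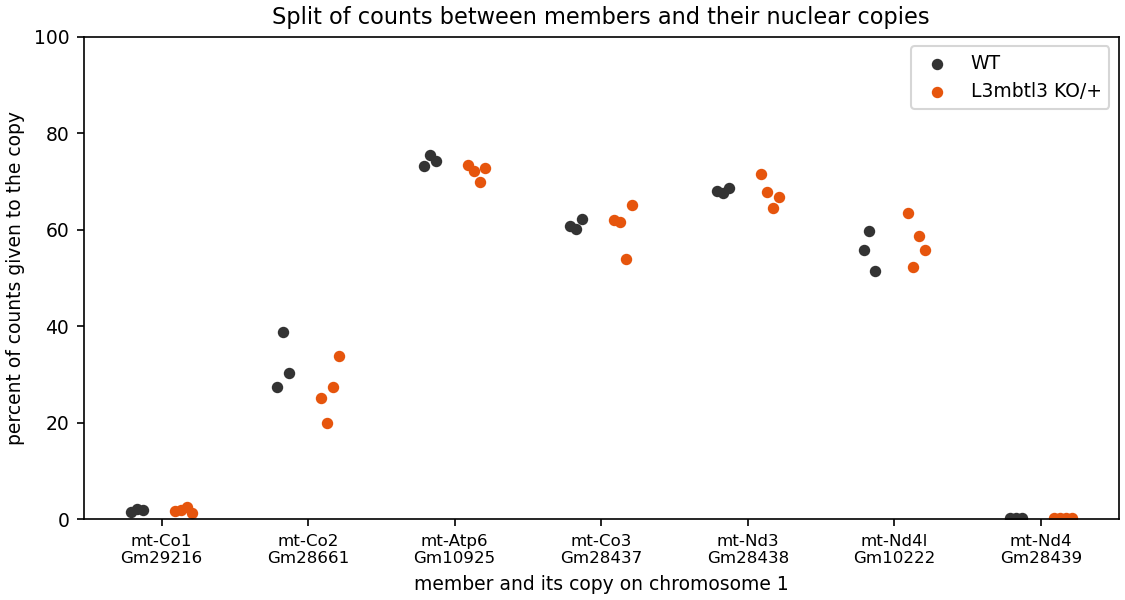
Percent of the counts of a member and its copy that the deposited estimates gave to the copy (y axis), for the 7 pairs (x axis, in order along the mitochondrial genome), with 1 point per library in WT (black) and L3mbtl3 KO/+ (orange). The copies of mt-Atp6, mt-Co3, mt-Nd3 and mt-Nd4l took over 50% in every library, and those of mt-Co1 and mt-Nd4 took under 3%.

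The level of a member depended on how length was counted and on whether the counts of its copy were added. By the deposited TPM, which divides by effective length, mt-Atp8 stood first at 41176 ± 4497 (SD, n = 7), above mt-Co1 at 15225 ± 1781. This member of 204 bases had an effective length of 3.28 to 4.41 bases, and it held 31.3% to 35.6% of the TPM of all members and 3.42% to 4.73% of the TPM of the whole library. No annotated gene counted as a copy of mt-Atp8, although the 43 bases it shares with mt-Atp6 also lie in Gm10925. Bases of the chromosome 1 block outside annotated genes were not compared. Counted per kilobase of annotated length, mt-Atp8 was at 498 ± 66.9 CPM per kb. That placed it at rank 12 of 15 without the counts of the copies and at rank 14 with them, since the copies moved mt-Nd3 and mt-Nd4l above it. Each of these scales placed mt-Nd6 last, at 135 ± 26.1 TPM and 30.5 ± 6.88 CPM per kb. The mRNA of mt-Nd6 is known in human cells to lack a poly(A) tail, and the part of the poly(A) selection in its level here was not tested.

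The order per kilobase depended on the copies. Without their counts, mt-Co1 stood first at 7873 ± 1156 CPM per kb, then mt-Cytb at 4058 ± 606, mt-Co2 at 3899 ± 828, mt-Nd1 at 2881 ± 424 and mt-Co3 at 2733 ± 453 (SD, n = 7). On that scale mt-Atp6 was at rank 9, at 1675 ± 295, mt-Nd3 at 249.7 ± 40.8 and mt-Nd4l at 231 ± 53.1. Of the 14 pairs of neighbours, mt-Rnr1 and mt-Atp6 were the least settled, with mt-Rnr1 higher in 3 of 7 libraries.

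With copies added, the 3 subunits of complex IV and mt-Atp6 stood highest. The order was mt-Co1 at 8028 ± 1187, mt-Co3 at 6965 ± 986, mt-Atp6 at 6199.5 ± 984 and mt-Co2 at 5475 ± 961 CPM per kb (SD, n = 7), and each stood above the next in 7 of 7 libraries. These are the subunits of the catalytic core of cytochrome c oxidase and the membrane subunit of ATP synthase that forms the proton channel. Next came mt-Cytb, the only mitochondrial subunit of complex III, at 4058 ± 606, then mt-Nd1 at 2881 ± 424 and mt-Nd4 at 2435 ± 363, both of complex I. The rRNA of the large ribosomal subunit, mt-Rnr2, was at 2345 ± 559, and that of the small subunit, mt-Rnr1, at 1746 ± 437. The part of the poly(A) selection in the levels and shares of these rRNAs was not tested either.

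The lower end held other subunits of complex I. There mt-Nd2 was at 1603 ± 213, mt-Nd5 at 1228 ± 246, mt-Nd3 at 781 ± 146 and mt-Nd4l at 534 ± 108 CPM per kb. Neighbours that changed places between libraries were mt-Nd1 and mt-Nd4 (first higher in 6 of 7), mt-Nd4 and mt-Rnr2 (5 of 7), mt-Rnr1 and mt-Nd2 (5 of 7), and mt-Nd4l and mt-Atp8 (5 of 7). Other neighbours kept their order in 7 of 7 libraries, although the ranges of neighbours overlapped everywhere except between mt-Atp8 and mt-Nd6. The members of a shared mRNA were far apart: mt-Atp6 stood well above mt-Atp8 and mt-Nd4 well above mt-Nd4l, with which it overlaps by 7 bases. Both of the shorter partners are shorter than the mean fragment, and the part of fragment length in this gap was not tested.

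**Figure D2:**
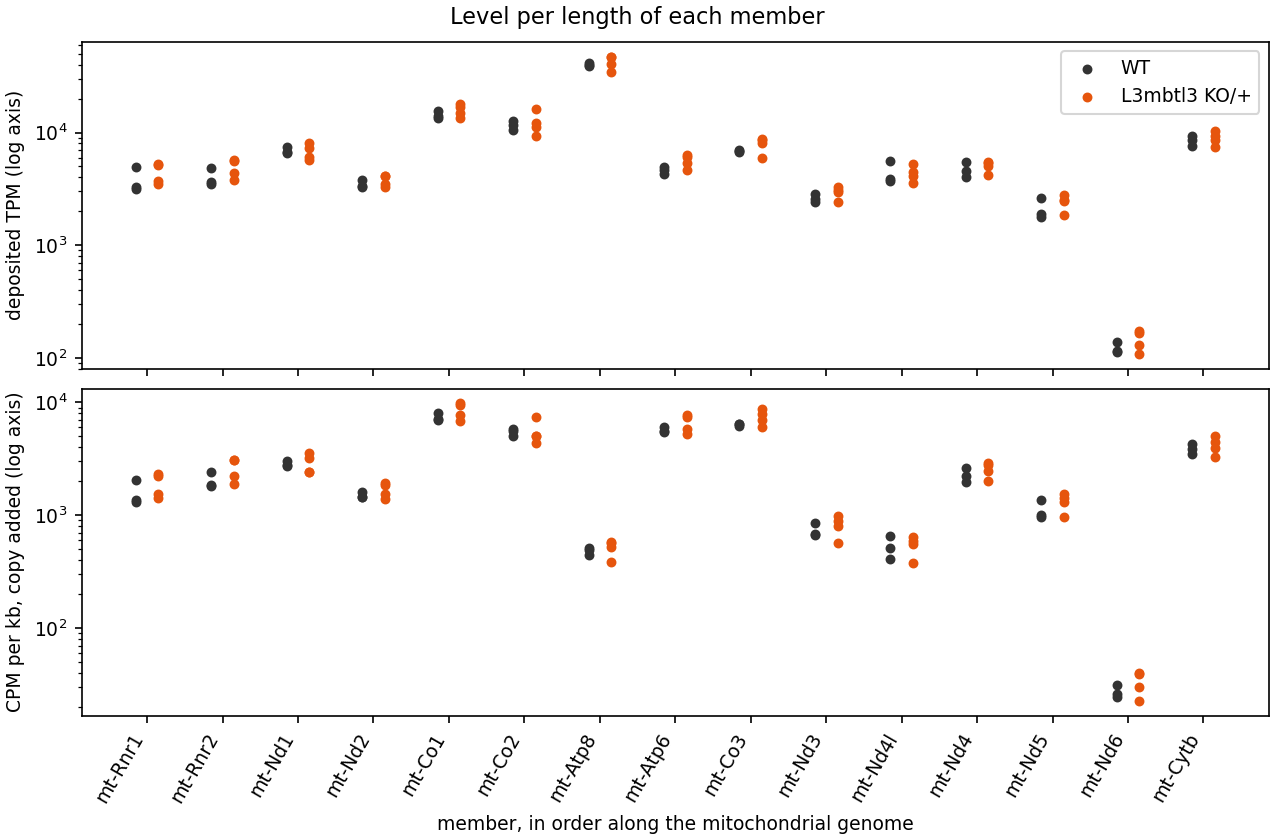
Level per length of the 15 members (x axis, in order along the mitochondrial genome) as deposited TPM (upper panel) and as CPM per kilobase of annotated length with the counts of the nuclear copies added (lower panel), both on log axes, with 1 point per library in WT (black) and L3mbtl3 KO/+ (orange). The position of mt-Atp8 goes from first on the upper panel, at 34209 to 47253 TPM, to next to last on the lower panel, while mt-Nd6 is last on both.

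The pool of mitochondrial counts varied between libraries more than between genotypes. Protein-coding members took 2.90%, 2.99% and 3.38% of all counts in WT replicates 1 to 3, against 4.03%, 3.85%, 3.25% and 2.73% in KO/+ replicates 1 to 4. The means were 3.09% ± 0.253 (SD, n = 3) and 3.46% ± 0.594 (SD, n = 4). The rRNAs took 0.412%, 0.422% and 0.581% in WT, against 0.713%, 0.701%, 0.501% and 0.434% in KO/+, or 0.472% ± 0.0949 and 0.587% ± 0.141. With the copies added, members took 4.03%, 4.19% and 4.76% in WT, against 5.74%, 5.43%, 4.47% and 3.87% in KO/+. In each of these sums KO/+ replicates 1 and 2 were the highest libraries, the genotypes overlapped, and the difference of the means was smaller than the SD over the KO/+ libraries. As a sum over chosen members, the pool was given no p-value.

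**Figure D3:**
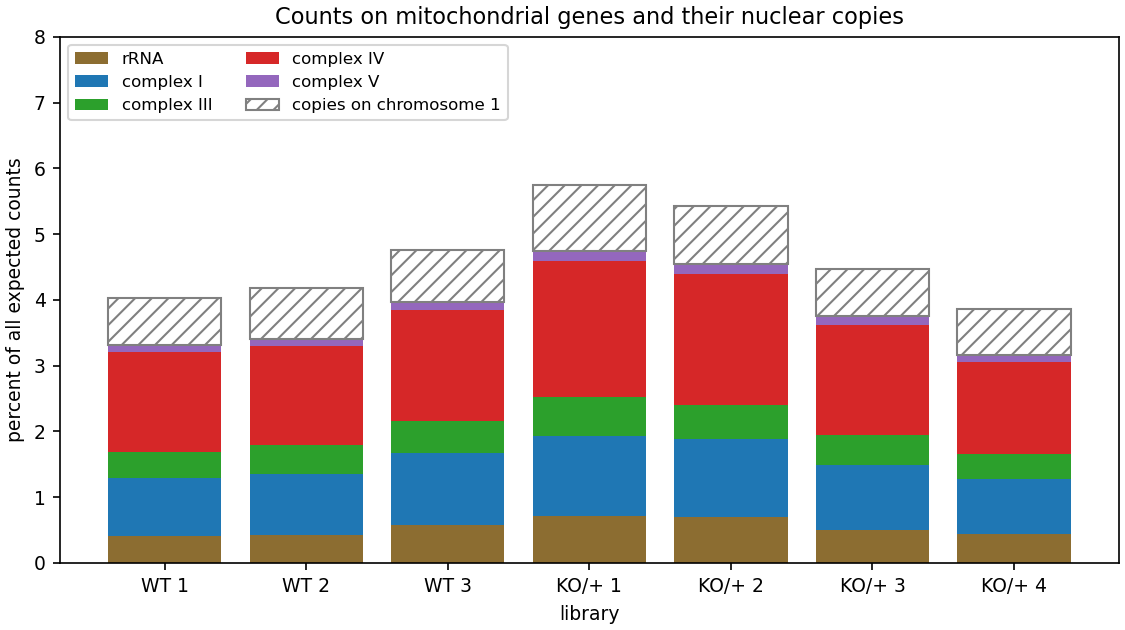
Percent of all expected counts (y axis) on mitochondrial members in each of the 7 libraries (x axis), stacked by rRNA and by the respiratory complex of the protein-coding members, with the nuclear copies on chromosome 1 hatched on top. KO/+ replicates 1 and 2 reach 5.74% and 5.43% with copies, and KO/+ replicate 4 is the lowest library at 3.87%.

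Most members were high or low in the same libraries. Relative to each member's mean log2 CPM over the 7 libraries, 15 of 15 members were above the mean in KO/+ replicate 2, 14 of 15 in KO/+ replicate 1 (all but mt-Nd4l) and 13 of 15 in WT replicate 3. In KO/+ replicate 4 and WT replicate 1, 0 of 15 were above it, and in WT replicate 2 only mt-Atp8 was. In KO/+ replicate 3 the members were divided, with 8 of 15 above. The median deviation ran from -0.29 in KO/+ replicate 4 to 0.29 in KO/+ replicate 1. KO/+ replicate 4 was the lowest library for 9 members and KO/+ replicate 1 the highest for 9. WT replicate 1 was the lowest for 4 members, WT replicate 2 for 1 (mt-Atp6), and WT replicate 3 the highest for 1 (mt-Nd4l).

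Once each member was given as a share of mitochondrial counts, the libraries came closer. The median SD over libraries was 0.25 on log2 CPM and 0.12 on log2 share. Complex IV subunits took 46.0%, 44.5% and 42.6% of mitochondrial counts in WT and 43.8%, 44.001%, 44.7% and 44.3% in KO/+. Complex I subunits took 26.3%, 27.1% and 27.5% in WT, against 25.8%, 26.0%, 26.4% and 26.8% in KO/+. The makeup of the pool was therefore steadier than its size, and the genotypes overlapped for both complexes.

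The smaller classes behaved alike in this respect. For mt-Cytb, which stands for complex III, the share was 12.04%, 13.1% and 12.3% in WT, against 12.3%, 11.3%, 12.004% and 11.9% in KO/+. The complex V subunits took 3.29%, 3.03% and 2.98% in WT, against 3.19%, 3.35%, 3.50% and 3.30% in KO/+. That share rested on the division with Gm10925: with copies added it was 8.97% to 9.55% over the 7 libraries. The rRNAs took 12.4%, 12.4% and 14.7% in WT, against 15.0%, 15.4%, 13.4% and 13.7% in KO/+, or 13.2% ± 1.31 (SD, n = 3) and 14.4% ± 0.985 (SD, n = 4), with WT replicate 3 inside the KO/+ range.

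Marker sums of some cell types differed between the same libraries. The 8 dividing progenitor markers summed to 504, 531 and 167 CPM in WT, against 189, 172, 415 and 459 CPM in KO/+, so they were lowest in the 3 libraries with the most mitochondrial counts, WT replicate 3 and KO/+ replicates 1 and 2. The 7 Purkinje cell markers summed to 4999, 5611 and 7384 CPM in WT, against 5964, 7796, 6162 and 5356 CPM in KO/+. The 7 oligodendrocyte markers summed to 11088, 10093 and 18721 CPM in WT, against 12553, 17322, 15185 and 8022 CPM in KO/+, lowest in KO/+ replicate 4, as the mitochondrial pool was. The 10 choroid plexus markers summed to 43.9 to 1075 CPM in WT and 49.9 to 1433 CPM in KO/+, and the 7 red blood cell markers to 719 to 759.9 CPM in WT and 686 to 1533 CPM in KO/+. In KO/+ relative to WT, the log2 fold change was positive for 10 of 10 choroid plexus, 7 of 7 red blood cell and 6 of 7 Purkinje cell markers. It was also positive for 7 of 8 mature granule neuron and 5 of 6 Bergmann glia and astrocyte markers, and negative for 8 of 8 dividing progenitor markers. The oligodendrocyte, microglia and endothelial cell lists were divided, with 4 of 7, 3 of 6 and 4 of 6 markers positive. Of the cerebral cortex and hippocampus markers, 3 were tested and 0 were positive. Not every list was ordered like the pool: the 8 mature granule neuron markers summed to 4524, 4239 and 3598 CPM in WT, against 5347, 4747, 4005 and 4641 CPM in KO/+, lowest in WT replicate 3. The 6 Bergmann glia and astrocyte markers summed to 2842 to 3447 CPM in WT and 3044 to 3764 CPM in KO/+, highest in KO/+ replicates 1 and 2. No marker of these lists was at 0 in all libraries, and their part in the mitochondrial levels was not tested.

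The comparison of genotypes asks whether loss of 1 allele of L3mbtl3, a chromatin protein, went with a change in any mitochondrial transcript. None of the 15 measured members passed the test. By edgeR's quasi-likelihood test with Benjamini-Hochberg adjustment over 16813 genes, 0 of 15 members passed an adjusted p of 0.05, where 0% of all genes passed. The members' adjusted p ran from 0.957 to 0.986 (n = 3 and 4, edgeR). Without adjustment 530 genes (3.15%) were under 0.05 and 0 of 15 members were. In CPM, 15 of 15 members overlapped between the genotypes, and 4.12% of all genes did not overlap. With shares this low over all genes, neither count sets the 15 members apart.

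The log2 fold change of KO/+ relative to WT was positive for 14 of 15 members, with a median of 0.17, against 48.8% positive and a median of -0.0048 over all genes. Members share their libraries' pool, so they do not count as 15 separate observations. The 95% intervals reached from -0.57 to 0.86 over the 15 members, which allows folds from 0.672 to 1.81, and the members' median SE was 0.17 against 0.14 for all genes. When each library was left out in turn, 12 to 15 of the 15 members were positive, with the median highest without KO/+ replicate 4, at 0.28, and lowest without KO/+ replicate 2, at 0.11.

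**Figure D4:**
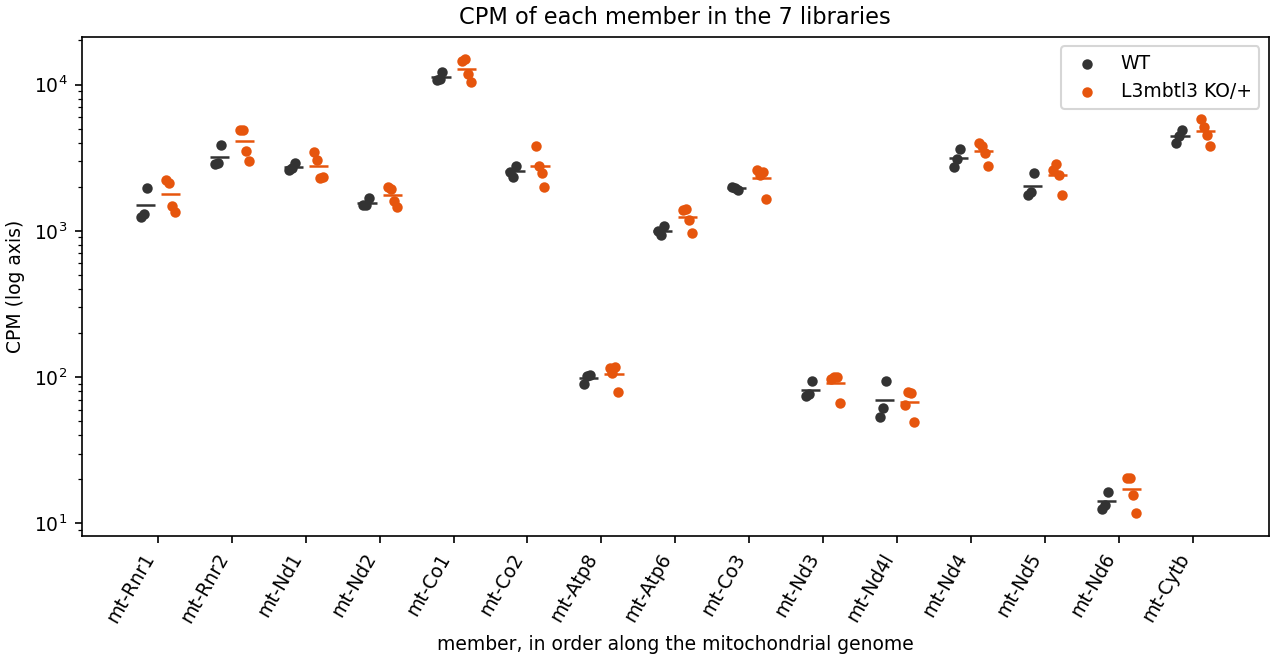
CPM of the 15 members (y axis, log scale; x axis in order along the mitochondrial genome) with 1 point per library and a line at the genotype mean, in WT (black) and L3mbtl3 KO/+ (orange). The points of the genotypes overlap for every member shown, and KO/+ replicate 4 is the lowest point for 9 of them.

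The rRNAs of the mitochondrial ribosome had 2 of the 4 largest fold changes, with wide errors. For mt-Rnr1 the CPM was 1249.6, 1297 and 1955 in WT, against 2220.5, 2121, 1482 and 1346 in KO/+. For mt-Rnr2 it was 2874, 2923 and 3858 in WT, against 4908, 4885, 3523 and 2998 in KO/+. In both, WT replicate 3 lay above KO/+ replicates 3 and 4 and below KO/+ replicates 1 and 2. The log2 fold change was 0.26 (SE 0.25) for mt-Rnr1 and 0.35 (SE 0.22) for mt-Rnr2, the largest of the 15. The ratio of mt-Rnr2 to mt-Rnr1 on the TPM scale was 1.07 ± 0.0806 in WT and 1.11 ± 0.0434 in KO/+, a difference smaller than the SD of the WT libraries.

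Complex I, which takes electrons from NADH, has 7 members. Its members mt-Nd1 and mt-Nd2 follow the rRNAs on the genome. For mt-Nd1 the CPM was 2597, 2666 and 2910.1 in WT, against 3432, 3056, 2303 and 2333 in KO/+, so that the highest and the lowest library were both KO/+. Its log2 fold change was 0.04 (SE 0.17), and it was -0.09 without KO/+ replicate 1. For mt-Nd2 the CPM was 1497, 1492 and 1681 in WT, against 1996, 1938, 1600.3 and 1445 in KO/+, a log2 fold change of 0.17 (SE 0.15).

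For mt-Nd4 the CPM was 2728, 3081 and 3622 in WT, against 4012, 3804, 3395 and 2786 in KO/+, a log2 fold change of 0.16 (SE 0.17). For mt-Nd5 it was 1746, 1835 and 2482 in WT, against 2605, 2840.3, 2408 and 1769 in KO/+, a log2 fold change of 0.25 (SE 0.20). For mt-Nd6, from the other strand, it was 12.6, 13.5 and 16.3 in WT, against 20.6, 20.5, 15.5 and 11.8 in KO/+, a log2 fold change of 0.28 (SE 0.22). In these 3 members KO/+ replicates 1 and 2 were the highest libraries, and WT replicate 3 lay above KO/+ replicate 3. Since the strand setting of the counting is not given in the sources used here, reads in the 14 bases that mt-Nd5 and mt-Nd6 share cannot be told apart by strand.

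The remaining members of complex I, mt-Nd3 and mt-Nd4l, are its shortest. For mt-Nd3 the CPM was 74.2, 76.5 and 93.7 in WT, against 97.7, 100.1, 99.9 and 66.0 in KO/+, where replicate 4 alone lay below all WT libraries. Its log2 fold change was 0.16 (SE 0.17). For mt-Nd4l the CPM was 53.6, 61.3 and 93.8 in WT, against 64.7, 78.6, 78.3 and 49.4 in KO/+. It was the only member with a negative log2 fold change, -0.04 (SE 0.23), and the highest library was WT replicate 3. Without that library the value was 0.26, and with the counts of its copy Gm10222 added it was 0.05.

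Complex III had the single member mt-Cytb, the cytochrome b that passes electrons from ubiquinol. Its CPM was 3993, 4448 and 4852 in WT, against 5813, 5121, 4499.6 and 3771 in KO/+. KO/+ replicates 1 and 2 lay above all WT libraries and KO/+ replicate 4 below them. The log2 fold change was 0.12 (SE 0.17).

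Complex IV, cytochrome c oxidase, hands electrons to oxygen and has 3 members. For mt-Co1 the CPM was 10735, 10876.5 and 12156 in WT, against 14388, 14841, 11771 and 10381 in KO/+, a log2 fold change of 0.20 (SE 0.17). For mt-Co3 it was 1996, 1952 and 1906 in WT, against 2586, 2404, 2507 and 1646 in KO/+, a log2 fold change of 0.23 (SE 0.17). The WT libraries lay close together for mt-Co3, at 1951 ± 44.8 CPM (SD, n = 3), and 3 of 4 KO/+ libraries lay above them, but KO/+ replicate 4 lay below all of them. For mt-Co2 the CPM was 2519.8, 2327 and 2783 in WT, against 3787, 2783, 2493 and 1977 in KO/+, a log2 fold change of 0.12 (SE 0.22). That value rested on KO/+ replicate 1, without which it was -0.08, and with the counts of Gm28661 added it was -0.00061.

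Complex V, the ATP synthase, has 2 members. For mt-Atp6 the CPM was 1002, 933 and 1076 in WT, against 1397, 1418, 1193 and 967 in KO/+. Here 3 of 4 KO/+ libraries lay above all WT libraries and KO/+ replicate 4 lay among them. Its log2 fold change of 0.31 (SE 0.16) had a 95% interval from -0.05 to 0.68, with an unadjusted p of 0.0826 and an adjusted p of 0.957 (edgeR), and this was the smallest p of the 15. With the counts of Gm10925 added it was 0.20 (SE 0.17). For mt-Atp8 the CPM was 89.8, 101 and 104 in WT, against 115, 106, 117 and 78.6 in KO/+, a log2 fold change of 0.09 (SE 0.14).

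Adding the copies changed little for the other members that have one. The log2 fold change with copies added was 0.20 for mt-Co1, 0.22 for mt-Co3, 0.15 for mt-Nd3 and 0.16 for mt-Nd4. Again 0 of 15 members passed, where 0% of 16806 genes did (edgeR, Benjamini-Hochberg adjustment). Among the copies themselves, Gm28661 was at 955, 1471 and 1209 CPM in WT, against 1267, 691, 939 and 1014 CPM in KO/+, highest in WT replicate 2, where mt-Co2 was lower than in every library but KO/+ replicate 4.

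The same fit was made per mitochondrial count, with the summed counts of the members as library size, to show each member within the pool. On that scale 7 of 15 members were positive and the median was -0.02, where the median of all genes was -0.17. Scaled to their own sum, the members cannot all rise or all fall, so values on both sides of 0 were bound to occur. None of the 15 passed, with adjusted p from 0.917 to 0.989 (edgeR, Benjamini-Hochberg), where 0% of all genes passed and 1.89% were under 0.05 without adjustment. The highest were mt-Rnr2 at 0.15 (SE 0.15) and mt-Atp6 at 0.12 (SE 0.16). The lowest were mt-Nd4l at -0.19 (SE 0.21) and mt-Nd1 at -0.16 (SE 0.15).

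The share of mt-Nd1 in mitochondrial counts was 7.83%, 7.82% and 7.35% in WT, against 7.23%, 6.71%, 6.14% and 7.38% in KO/+, with KO/+ replicate 4 above WT replicate 3. With copies added to the pool the shares were 6.44%, 6.37% and 6.12% in WT, against 5.98%, 5.62%, 5.15% and 6.04% in KO/+. On that scale alone mt-Nd1 was lower in 4 of 4 KO/+ libraries than in any WT library, the 1 of 15 members whose genotypes did not overlap. Over all 16806 genes on the same scale, 1.57% did not overlap, 1.26% being lower in KO/+. This member was singled out after its values were seen, and its share without the copies overlapped.

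**Figure D5:**
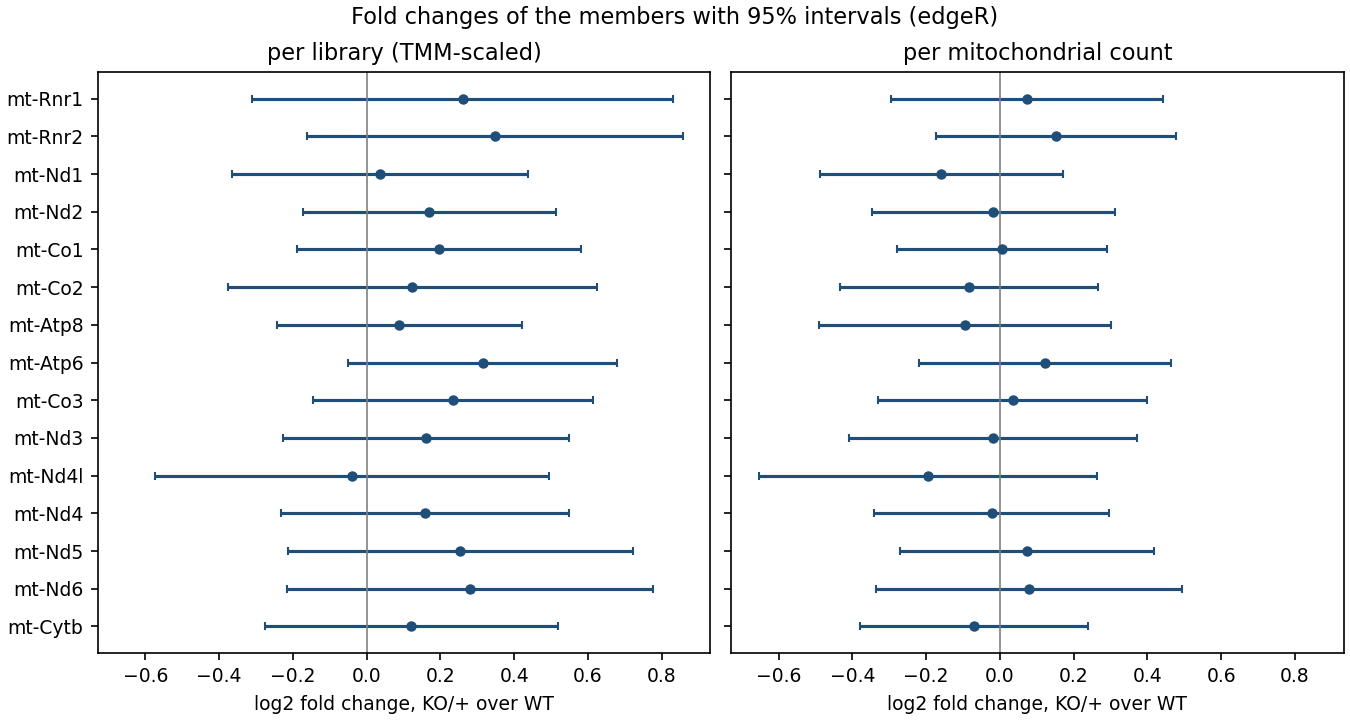
Log2 fold change of KO/+ over WT with 95% intervals (x axis) for the 15 members (y axis, in order along the mitochondrial genome), from edgeR with TMM-scaled library sizes (left) and with the mitochondrial total as library size (right). All 15 intervals include 0 in both panels, and the points move from 14 of 15 positive on the left to 7 of 15 positive on the right. On the right the members are scaled to their own sum, so values on both sides of 0 were bound to occur.

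The nuclear-encoded partners of the members were examined as lists. Of 76 nuclear genes for complexes I to V, which include the ATP synthase inhibitor Atpif1 beside subunits, 76 were tested and 0 passed (0% of all genes). The log2 fold change was positive for 73 and negative for 3 (Ndufa10, Ndufv1 and Atp5g2, named after their values were seen). The median was 0.11, against -0.0048 over all genes. These genes share the same libraries, so they do not count as 76 separate observations. Their summed CPM was 11503, 11029 and 11690.5 in WT, against 13204, 13233, 11834 and 11077 in KO/+, so KO/+ replicates 1 and 2 were highest here too and the genotypes overlapped. By complex the positive members were 34 of 36 for I, 4 of 4 for II, 9 of 9 for III, 11 of 11 for IV and 15 of 16 for V.

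The nuclear subunits with the smallest p were Ndufb11 and Ndufs4 of complex I, Sdhd of complex II and Cox7a2 of complex IV. Ndufb11 was at 90.8, 86.3 and 87.6 CPM in WT, against 112, 107, 95.2 and 90.0 CPM in KO/+, a log2 fold change of 0.20 (SE 0.10). Sdhd, a membrane anchor of succinate dehydrogenase, was at 109, 107 and 103 CPM in WT, against 127, 122, 114 and 109 CPM in KO/+, a log2 fold change of 0.16 (SE 0.081). The genotypes did not overlap for Sdhd alone of the 76, where 2.49% of all genes were higher in KO/+ without overlap. Ndufs4 was at 0.16 (SE 0.085) and Cox7a2 at 0.20 (SE 0.11).

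The genes for mitochondrial DNA upkeep, transcription and RNA handling, listed with nuclear regulators of mitochondrial genes, did not lean one way. Of 51 listed, 48 were tested and 0 passed (0% of all genes). Of these, 23 had a positive and 25 a negative log2 fold change, and the median was -0.0038. Tfam, which packs mitochondrial DNA and starts its transcription, was at 34.8, 32.8 and 36.3 CPM in WT, against 42.5, 40.6, 41.2 and 37.1 CPM in KO/+. All 4 KO/+ libraries lay above the WT libraries, with a log2 fold change of 0.22 (SE 0.085), an unadjusted p of 0.029 and an adjusted p of 0.957 (edgeR). Lrpprc, which with Slirp stabilises mitochondrial mRNAs and their poly(A) tails, was at 67.6, 68.2 and 71.1 CPM in WT, against 60.1, 57.9, 59.2 and 62.5 CPM in KO/+. Here all 4 KO/+ libraries lay below the WT libraries, with a log2 fold change of -0.20 (SE 0.066), an unadjusted p of 0.0162 and an adjusted p of 0.957 (edgeR).

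Of the 48, 5 genes were higher (Tfam, Rexo2, Tefm, Angel2 and Supv3l1) and 1 lower (Lrpprc) in KO/+ without overlap, where 2.49% and 1.63% of all genes were. Tefm, Angel2 and Supv3l1 are named here after their values were seen. Rexo2, a nuclease that degrades short RNAs in mitochondria, was at 0.15 (SE 0.079), and Trmt10c, a subunit of the enzyme that cuts tRNAs from the precursor at their 5′ end, at 0.17 (SE 0.097). Polrmt, the mitochondrial RNA polymerase, was at 46.7, 43.3 and 39.5 CPM in WT, against 40.5, 39.7, 41.3 and 48.7 CPM in KO/+, a log2 fold change of -0.02 (SE 0.090). It was highest in KO/+ replicate 4, the library with the least mitochondrial counts, and lowest in WT replicate 3. The library with the largest mitochondrial share of counts, KO/+ replicate 1, had more Polrmt than WT replicate 3 and KO/+ replicate 2. Slirp was at 0.07 (SE 0.086) and Ppargc1a, a coactivator of nuclear genes for mitochondria, at -0.06 (SE 0.17).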

How the data were processed

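The submitters' processing notes name bcl2fastq, Trimmomatic 0.39, RSEM 1.3.1 and STAR 2.5.2a as tools and mm10 and GRCm38 as builds. The authors deposited 1 table of genes per library. Its expected count, per the file headers, is what RSEM estimated for a gene, often not a whole number, and its TPM, per the file headers, is that estimate divided by effective length and scaled to the library.

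Members, lists and tests were chosen with earlier results of these data known. All 55450 gene IDs were found in GENCODE M21, from which positions and transcript sequences were taken. A nuclear copy is a gene of which at least 50% of the 50-base stretches occur in a member. CPM are expected counts per 1000000 of the library's total. Rounded counts were filtered with filterByExpr, scaled by TMM and tested with edgeR 4.0.16 (quasi-likelihood, robust) and Benjamini-Hochberg adjustment, with DESeq2 1.42.0, limma 3.58.1 on log2(TPM + 1) or log2(TPM + 0.1), other scalings and filters, and leaving out each library as alternatives. Every protein-coding and rRNA member was named, with up to 4 genes per list by smallest p, Polrmt, Tfam, Lrpprc, Slirp and Ppargc1a, and copies by mean CPM, of which the seventh, Gm28439, was added after its values were seen. The scripts were tested on simulated data. R 4.3.3 and Python 3.11.15 were used.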

Additional observations from a re-analysis of the deposited data

Results flagged for a closer look

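In 4 KO/+ libraries, a library was picked out where its gap to the nearest other library exceeded 0.829 of the whole range, which chance does in about 1 in 20 groups. Of 44 values examined, 3 were picked out. The CPM of mt-Nd3 was 66.04 in KO/+ replicate 4, against 97.7 to 100.1 in the other KO/+ libraries. The share of mt-Co3 in mitochondrial counts was 6.688% in KO/+ replicate 3, against 5.206% to 5.451%, and in that library Gm28437 took its lowest share of the pair, 54.0%. The share of mt-Nd2 was 4.57% in KO/+ replicate 4, against 4.208% to 4.269%.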

How the results depend on the processing

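No member passed the threshold under any alternative run. The differences of mitochondrial percent and of rRNA percent moved by less than the spread between replicates in all of theirs. The count of genes called was 0 under DESeq2, with 597 at an unadjusted p under 0.05, and under limma, with 442. It was 0 to 1 when libraries were left out: Eif3j2 without KO/+ replicate 4, Wdfy1 without WT replicate 2 and Fam220a without WT replicate 3, named after their values were seen. Per mitochondrial count it was 0 to 1 as well (Eif3j2 and Fam220a).

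With the replicate number as a block, 1 gene (Eif3j2) was called, and 64 per mitochondrial count. No WT library has the number 4, so under the block KO/+ replicate 4 does not enter the genotype difference. The members' median log2 fold change was 0.29 under the block and 0.28 without KO/+ replicate 4. The labels do not say whether the numbers pair the samples. Deviations of same-numbered libraries correlated at 0.086, -0.17 and -0.022. No WT library correlated best with the KO/+ library of its number, and of the KO/+ libraries only replicate 1 correlated best with the WT library of its number. With so few libraries, these values cannot settle whether the samples are paired. Under the block mt-Nd4l was at 0.13, and per mitochondrial count mt-Co1 at -0.010 and mt-Nd3 at 0.0074.

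Members with a small fold change changed sign. With limma mt-Nd1 was at -0.031 on both pseudocounts. With copies added, an alternative chosen after seeing the data, mt-Co2 was at -0.00061 and mt-Nd4l at 0.047. With the 13 protein-coding members as library size, mt-Nd2 was at 0.0025. Over libraries left out, mt-Nd1 ranged from -0.089 to 0.11, mt-Co2 from -0.077 to 0.25 and mt-Nd4l from -0.21 to 0.26. Per mitochondrial count the ranges were -0.045 to 0.0046 for mt-Nd2, -0.016 to 0.028 for mt-Co1, -0.055 to 0.10 for mt-Co3, -0.11 to 0.022 for mt-Nd3 and -0.069 to 0.0064 for mt-Nd4. The cause was not tested. The part of depth was not tested.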
